A study of Mus musculus with 6 samples.

Results

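The genes described here encode the chaperones and folding enzymes of the endoplasmic reticulum (ER) and the sensors and effectors of the unfolded protein response. They were taken as 35 named genes, and every probe set annotated to exactly 1 of them was used. All 35 were measured, by 86 probe sets out of 45037 on the array, and all 35 had a probe set bright enough to be tested among 11102 tested genes. RNA came from livers of 10-week-old mice of the strain C57B/SV129, either lacking Nrf2 (genotype Nrf2 ko) or wild type (Nrf2 wt). Each of the 6 arrays carried RNA pooled from 3 animals, with 3 pools per genotype that the labels call biological replicates, and no treatment or injury is named. The labels give neither the design of the Nrf2 allele nor the sex of the mice, and they do not say whether animals were shared between pools. Nrf2 is the transcription factor that induces detoxification and glutathione genes through antioxidant response elements. The series as a whole concerns poor liver regeneration and insulin and IGF-1 resistance in these mice.

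Hepatocytes secrete most plasma proteins, and these proteins fold in the ER. When unfolded protein accumulates there, the sensors IRE1 (Ern1), PERK (Eif2ak3) and ATF6 are released from the chaperone BiP (Hspa5). IRE1 splices the Xbp1 mRNA, ATF6 is cut in the Golgi to release a transcription factor, and PERK slows translation. Spliced XBP1 and cleaved ATF6 raise the transcripts of chaperones and of the machinery that returns misfolded protein to the cytosol for degradation.

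The genotype check and the state of the pools come before the results. Nfe2l2, which encodes Nrf2, had deposited intensities of 5.74, 7.40 and 6.90 without Nrf2 against 696, 598 and 625 in wild type. Of 10 hepatocyte markers 9 had normalized intensities of 4399 or more in every pool, with Apoa1 the brightest and albumin between 10456 and 11605, as the label liver implies. The other, Ass1, was between 147 and 276 at its probe set. Over all 11102 genes, 16 passed a limma adjusted p of 0.05, which is 0.144%. The pools numbered 3 of both genotypes stood apart by their cytosolic heat shock transcripts, of which all 9 tested were higher in both of these pools than in any other pool. Hspa1b, the inducible Hsp70, had normalized intensities of 433, 138 and 5999 without Nrf2 against 654, 931 and 4107 in wild type. Some fasting, feeding and clock genes set the same pools apart too. Angptl4 had 134, 88.1 and 568 against 80.6, 126 and 919. Pdk4 had 175, 232 and 73.3 against 203, 163 and 68.4, and the clock gene Arntl 290, 304 and 206 against 269, 237 and 212. Others did not, such as Igfbp1, which was low in knockout pool 3 and high in wild-type pool 3. The 2% trimmed mean intensity ranged from 92.8 to 121 over knockout pools and from 92.7 to 132 over wild-type pools (exact two-sided permutation p = 0.5). The 3′ to 5′ ratio of the actin control averaged 1.97 ± 0.03 (SD, n = 3) for knockout pools against 1.86 ± 0.08 for wild-type pools (exact two-sided permutation p = 0.1, and 3 against 3 can go no lower). In liver RNA, fewer cells of a type and less RNA per cell cannot be told apart.

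ER chaperone and stress transcripts lay lower in Nrf2 knockout liver at 34 of the 35 genes, by small amounts, and no gene passed the test. The median difference was -0.20 log2, against 0.01 over all tested genes, of which 48.6% were lower. The lowest values were those of Creld2 (-0.77 ± 0.43 log2, SE), Hyou1 (-0.74 ± 0.22), Sdf2l1 (-0.67 ± 0.25), Ero1lb (-0.65 ± 0.22) and Dnajb9 (-0.62 ± 0.27). Atf6 alone was higher at its brightest probe set, by 0.03 ± 0.17, and it was at -0.02 when arrays were centred on their medians. By limma, 0 of 35 had an adjusted p under 0.05, where 0.144% of all genes did, and the smallest adjusted p at a brightest probe set was 0.482, for Hyou1. Before adjustment, 8 genes had p under 0.05, all of them lower and 0 higher, against 4.15% of all genes on the lower side and 4.07% on the higher. These were Hyou1, Ero1lb, Sel1l, Sdf2l1, Pdia4, Uggt1, Manf and Dnajc3. Each pool moved this count, given here with the share of all genes on the lower side in the same fit. Leaving out knockout pool 1 gave 3 (4.56%), knockout pool 2 gave 2 (3.34%) and knockout pool 3 gave 17 (4.87%). Leaving out wild-type pool 1 gave 14 (3.25%), wild-type pool 2 gave 5 (2.75%) and wild-type pool 3 gave 2 (3.99%). With limma's trend turned off it was 4 (3.77%). In each of these fits 33 to 35 genes were lower and 0 passed. Every knockout pool was below every wild-type pool at 9 genes and the reverse held at 0, against 6.55% and 7.38% of all tested genes. These were Hyou1, P4hb, Ero1l, Ero1lb, Uggt1, Stt3a, Sel1l, Derl1 and Derl2. A difference of 0.5 log2 or more below the wild type was measured at 9 of the 35 genes and at 2.64% of all tested genes.

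**Figure D1:**
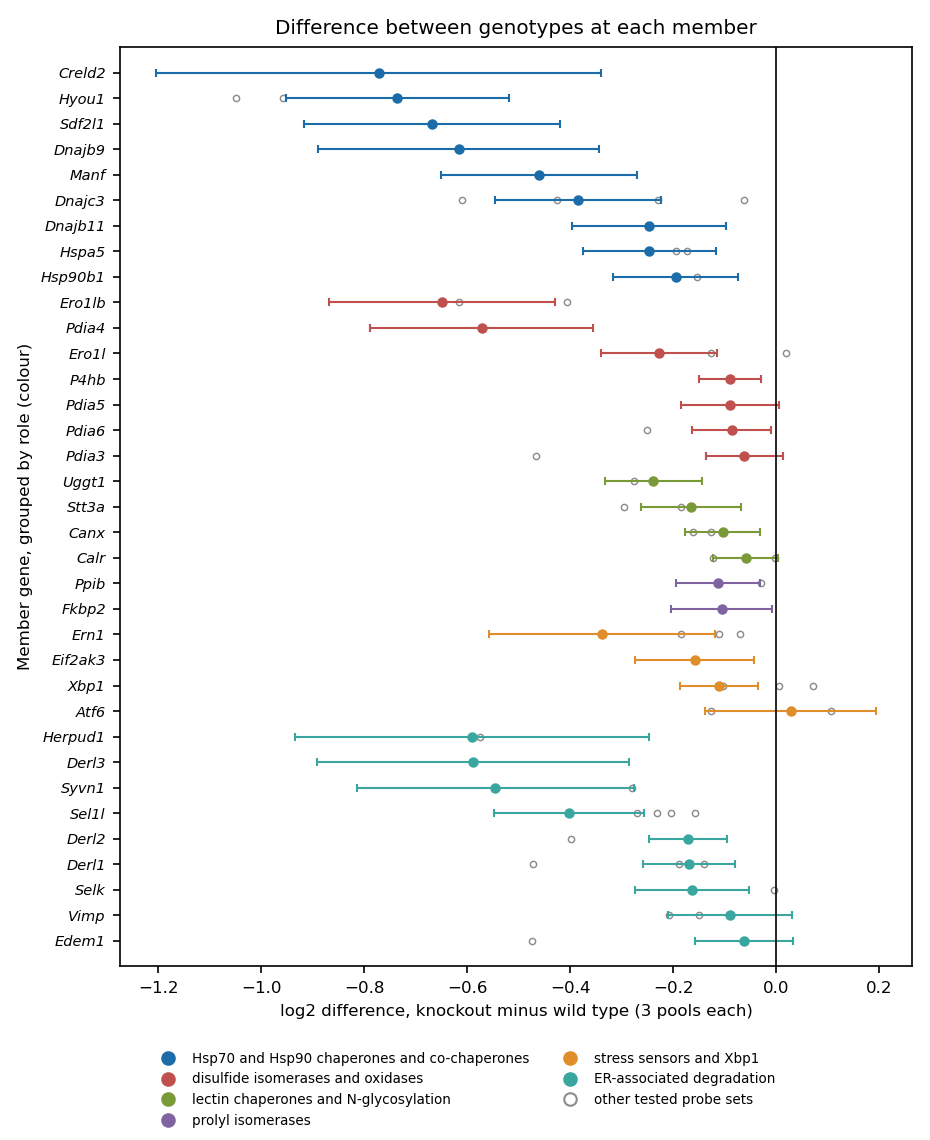
Log2 difference, knockout minus wild type, of each of the 35 genes at its brightest probe set (filled points, with the SE of limma as bars, 3 pools per genotype), grouped by role, and of its other tested probe sets (open circles). All filled points but that of Atf6 lie left of 0, from -0.77 at Creld2 to -0.06 at Calr.

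All tested probe sets of these genes, the brightest ones above included, gave the same sign with few exceptions. Of these 80 tested probe sets, 75 were lower in the knockout, where 49.2% of all 22519 tested probe sets were. All tested probe sets were lower for 32 genes, of the 35, and 24 genes had more than 1. The 5 probe sets that were higher belonged to Atf6 (0.03 and 0.11 log2), Xbp1 (0.01 and 0.07) and Ero1l (0.02). Probe sets with an unadjusted p under 0.05 numbered 16, all lower, where 3.89% of all probe sets were, and they came from 12 genes. The smallest adjusted p was 0.238, at a dimmer probe set of Hyou1 that was lower by 1.05 ± 0.22 log2. Edem1 had probe sets that disagreed in size, -0.06 ± 0.10 at the brighter and -0.47 ± 0.11 at the dimmer, the second with an adjusted p of 0.296.

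The pools of a genotype differed among themselves in both genotypes. The median SD between pools over the 35 genes was 0.14 log2 for knockout pools against 0.19 for wild-type pools. Over all tested genes these medians were 0.17 and 0.15. Pool 3 lay above the mean of pools 1 and 2 by a median of 0.19 log2 in the knockout and 0.17 in wild type. Knockout pools 1 and 2 both lay below all wild-type pools at 25 of the 35 genes, against 12.9% of all tested genes. Knockout pool 3 lay inside the wild-type range at 23 genes, where 45.7% of all genes did, and below it at 12, where 28.6% did. At the brightest probe set of each gene, the highest pool was wild-type pool 3 for 23 genes and wild-type pool 2 for 12. A knockout pool was thus highest for 0, while 45.9% of all genes had their highest value in a wild-type pool. This did not hold at all dimmer probe sets. Knockout pool 3 was highest at a dimmer probe set of Hspa5 (7858, against 7150 in wild-type pool 3). The same held at a dimmer probe set of Xbp1 (4207 against 3805). At the brightest probe sets, the lowest pool was knockout pool 2 for 20 genes and knockout pool 1 for 11, against 19.6% and 12.6% of all genes. Knockout pool 2 was also the highest pool for 23.5% of all genes, the most of any pool. The median deviation of the 35 genes from their mean over 6 pools was -0.14, -0.17 and 0.01 log2 for knockout pools 1 to 3 against 0.00, 0.12 and 0.20 for wild-type pools 1 to 3. Over all tested genes these medians lay between -0.02 and 0.02. The 9 cytosolic heat shock genes had medians of -0.66, -0.87 and 0.97 for knockout pools 1 to 3 against -0.37, -0.09 and 0.79 for wild-type pools 1 to 3, and their part in the ER pattern was not tested. Without both pools numbered 3, the 35 genes had a median of -0.23 log2, 34 were lower, 13 had an unadjusted p under 0.05 on the lower side, where 4.82% of all genes did, and 0 passed. Within each number, the knockout pool was below the wild-type pool at all 3 numbers for 25 genes, against 15.5% of all tested genes.

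**Figure D2:**
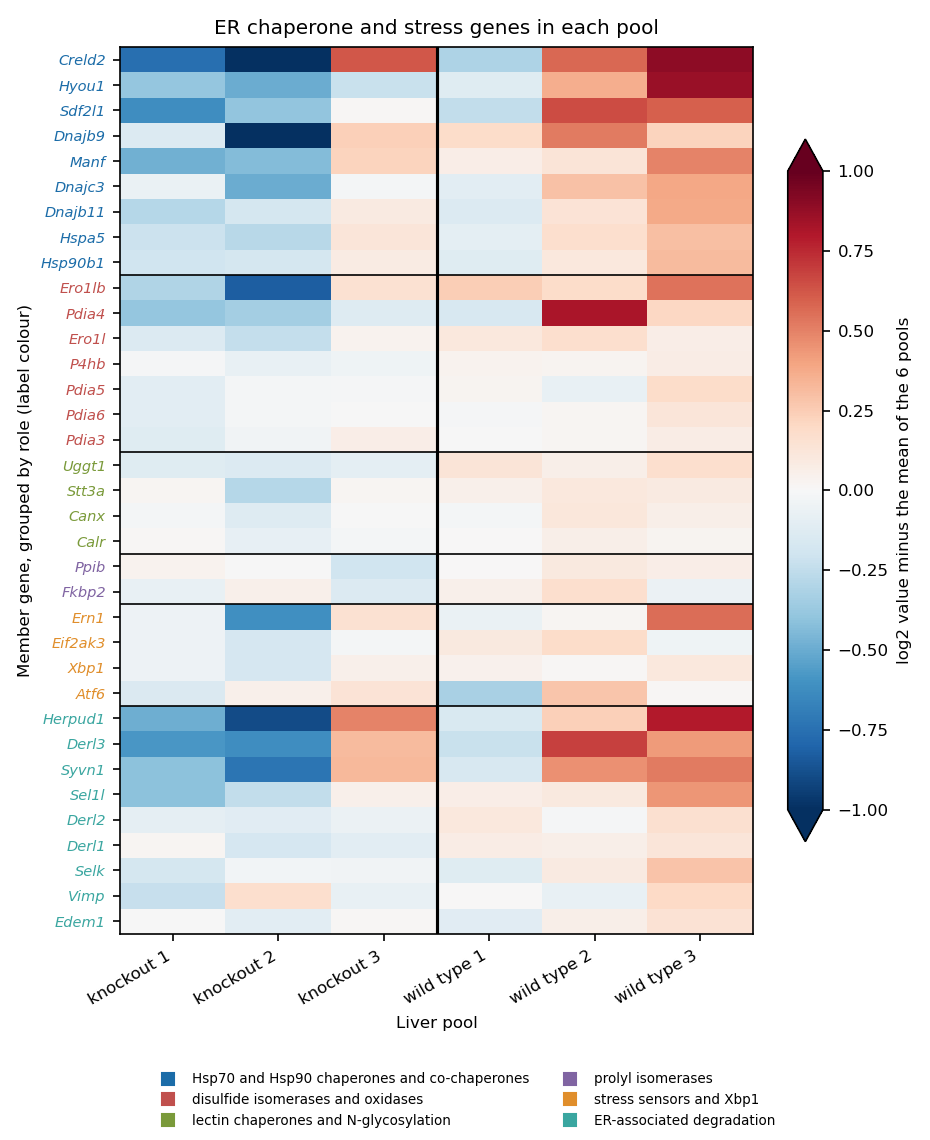
Log2 value of each of the 35 genes in each of the 6 pools minus the gene's mean over the 6 pools (blue below, red above, colours ending at -1 and 1), with genes in rows by role and pools in columns. Knockout pools 1 and 2 are mostly blue, wild-type pools 2 and 3 mostly red, and knockout pool 3 resembles wild-type pools at Creld2, Herpud1, Derl3 and Syvn1.

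**Figure D3:**
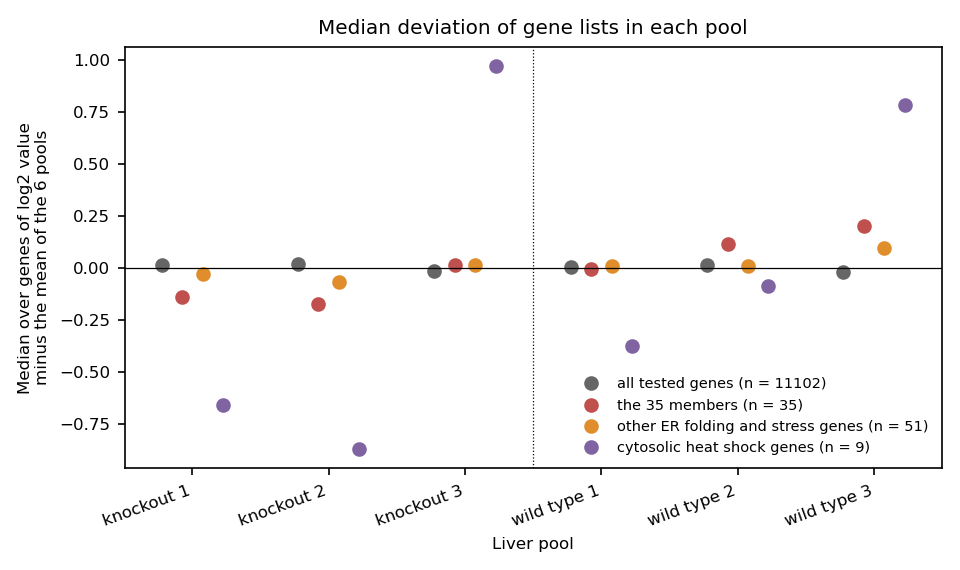
Median over genes of the log2 value minus its mean over the 6 pools, for each pool, for all 11102 tested genes, the 35 genes described here, 51 other ER folding and stress genes and 9 cytosolic heat shock genes. The heat shock genes reach 0.97 and 0.79 in the pools numbered 3, while the 35 genes lie between -0.17 and 0.20.

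The rule did not use sequence, and 10 of these genes carried a known promoter element. The ER stress response element (ERSE) reads CCAAT, then 9 bases of any kind, then CCACG. It is bound by ATF6 or XBP1 at its CCACG end together with NF-Y at its CCAAT end, and it is known from promoters of ER chaperone genes, so its presence here is background. It was searched on both strands in RefSeq promoter windows of GRCm38.p6, from 250 bases before to 50 after each start, and 31 of the 35 genes had such a window. The ERSE was in 10 of the 31 (32.3%), against 37 of 27025 genes (0.137%). By window, 39 of 32851 (0.119%) held it. The promoters of BiP (Hspa5), Grp94 (Hsp90b1), the co-chaperone p58IPK (Dnajc3), Creld2 and the degradation factor Herp (Herpud1) are printed because they carry these elements in different arrangements. Each is the 250 bases before the start, read along the gene, with capitals marking the fixed letters of the ERSE on either strand. In Herpud1 the capitals mark a related element, ERSE-II (ATTGG, 1 base of any kind, then CCACG), and a match to the ERSE without its last base, which is not a full ERSE. The windows are chr2:34771840-34772089, plus strand for Hspa5, chr10:86705445-86705694, minus strand for Hsp90b1, chr14:118937682-118937931, plus strand for Dnajc3, chr15:88819396-88819645, plus strand for Creld2 and chr8:94386179-94386428, plus strand for Herpud1.
Hspa5: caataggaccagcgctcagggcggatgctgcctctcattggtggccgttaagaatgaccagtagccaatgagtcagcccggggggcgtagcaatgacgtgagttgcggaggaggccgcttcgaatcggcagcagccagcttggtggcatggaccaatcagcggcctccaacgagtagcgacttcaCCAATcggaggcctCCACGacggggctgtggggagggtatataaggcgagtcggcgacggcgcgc
Hsp90b1: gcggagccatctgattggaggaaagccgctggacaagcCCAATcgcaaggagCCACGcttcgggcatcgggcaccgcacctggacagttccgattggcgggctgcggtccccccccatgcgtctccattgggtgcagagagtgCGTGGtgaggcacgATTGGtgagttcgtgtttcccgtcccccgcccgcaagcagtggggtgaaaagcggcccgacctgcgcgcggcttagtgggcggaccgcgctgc
Dnajc3: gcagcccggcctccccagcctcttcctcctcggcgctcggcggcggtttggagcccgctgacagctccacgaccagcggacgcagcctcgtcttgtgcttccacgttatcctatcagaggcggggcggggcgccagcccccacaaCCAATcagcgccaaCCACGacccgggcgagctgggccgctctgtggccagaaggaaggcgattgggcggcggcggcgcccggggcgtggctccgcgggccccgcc
Creld2: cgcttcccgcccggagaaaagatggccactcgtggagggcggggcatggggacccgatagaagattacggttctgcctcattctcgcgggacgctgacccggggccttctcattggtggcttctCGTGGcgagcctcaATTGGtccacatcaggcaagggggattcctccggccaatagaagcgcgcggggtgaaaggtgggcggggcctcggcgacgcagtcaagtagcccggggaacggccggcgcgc
Herpud1: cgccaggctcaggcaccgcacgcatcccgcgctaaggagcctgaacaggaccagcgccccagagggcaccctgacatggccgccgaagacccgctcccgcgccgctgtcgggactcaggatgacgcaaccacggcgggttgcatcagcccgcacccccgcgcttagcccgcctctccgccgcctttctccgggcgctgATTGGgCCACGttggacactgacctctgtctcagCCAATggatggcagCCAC

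Hsp90b1 carried 2 copies of the ERSE and the other 9 genes 1 each. All 11 copies lay before the start, the farthest beginning 212 bases upstream (Hsp90b1) and the nearest 44 bases upstream (Syvn1). They are shown side by side, turned so that each reads from CCAAT to CCACG, with the fixed letters in capitals and the spacer in lower case, so that the spacers can be compared, their length being fixed by the search.
Hspa5: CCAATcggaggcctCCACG
Hsp90b1, distal: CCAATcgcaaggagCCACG
Hsp90b1, proximal: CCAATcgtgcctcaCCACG
Dnajc3: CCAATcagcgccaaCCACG
Creld2: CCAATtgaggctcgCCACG
Pdia6: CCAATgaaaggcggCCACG
Ero1lb: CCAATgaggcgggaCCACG
Calr: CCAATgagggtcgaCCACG
Canx: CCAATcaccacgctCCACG
Syvn1: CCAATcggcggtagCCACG
Derl3: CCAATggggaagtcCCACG
The 10 genes with the element had a median difference of -0.32 log2, ranging from -0.77 (Creld2) to -0.06 (Calr), and the 21 with a window but no match had a median of -0.165. Of tested genes outside the set that held the element, 3 of 5 were lower: Alg12 (-0.37), Acacb (-0.29) and Pan2 (-0.14), with Adcy3 at 0.09 and Acnat2 at 0.60. The ERSE without its last base was in 15 of 31 (48.4%), against 0.429% of all genes. The 15 had a median of -0.25 log2 and the 16 without this form -0.16. Of 22 tested genes outside the set with this form, 10 were lower, with a median of 0.03. ERSE-II was in Herpud1 and Dnajb11, 2 of 31 (6.45%), against 0.0444% of all genes. Of 6 tested genes outside the set with ERSE-II, 2 were lower. The core of the antioxidant response element, TGACNNNGC, was in 6 of 31 (19.4%), namely Sdf2l1, Pdia3, Calr, Ern1, Herpud1 and Selk, against 14.0% of all genes. The 6 had a median of -0.25 log2 and the 25 without a match -0.20. The letters TGACGTGG, another site of XBP1 and ATF6, were in 0 of 31 windows and in 0.714% of all genes. ERSE and ERSE-II matches did not overlap in these genes, and a match here is a match of letters.

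**Figure D4:**
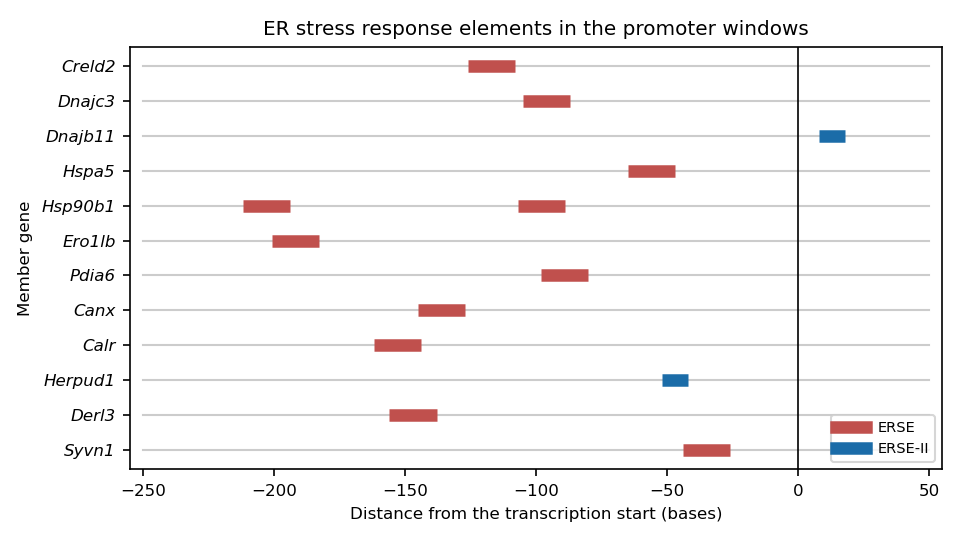
Position of ERSE (red) and ERSE-II (blue) matches in the promoter windows of the 12 genes that held either, as distance in bases from the transcription start, with grey lines spanning the searched window. The 11 ERSE copies lie upstream of the start, between 212 and 26 bases away, and the ERSE-II of Dnajb11 lies after it.

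The Hsp70 and Hsp90 chaperones of the ER and their co-chaperones were lower at 9 of 9 genes, with a median of -0.46 log2. Creld2, described below as a disulfide-handling protein, was listed in this group and is counted in it. Hspa5, the ER Hsp70 BiP, had normalized intensities of 6331, 6062 and 7985 without Nrf2 against 6854, 8267 and 9039 in wild type. The groups overlapped, since knockout pool 3 was above wild-type pool 1, and the difference was -0.25 ± 0.13 log2, 1.19-fold, with a limma adjusted p of 0.709. Hsp90b1, the ER Hsp90 Grp94, had 4754, 4847 and 5801 against 5019, 5879 and 6805. Its groups overlapped in the same way, with a difference of -0.20 ± 0.12. Hyou1, a large Hsp70 relative that acts as nucleotide exchange factor of BiP, had 526, 487 and 591 against 634, 886 and 1256. Every knockout pool of Hyou1 was below every wild-type pool, and it was 1.67-fold lower (adjusted p = 0.482). All 3 of its probe sets were lower, by 0.74 to 1.05 log2.

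Several co-chaperones had larger differences than BiP, and these differences were not tested against each other. Sdf2l1, which forms a complex with the J proteins of the ER, had normalized intensities of 452, 527 and 701 without Nrf2 against 585, 1096 and 1059 in wild type. Knockout pool 3 was above wild-type pool 1 and below the others, and the difference was 1.59-fold (adjusted p = 0.600). Dnajb9, the J protein ERdj4 that hands clients to BiP and holds IRE1 in check, had 2077, 1124 and 2700 against 2596, 3289 and 2673. Knockout pool 2 alone was far below the rest, knockout pool 3 was level with wild-type pool 3, and the difference was -0.62 ± 0.27 log2. Dnajc3, a co-chaperone whose promoter holds an ERSE, had 1586, 1175 and 1632 against 1542, 2036 and 2163, a difference of -0.39 ± 0.16. Its 5 probe sets were all lower, from -0.61 to -0.06 log2. Manf, a secreted ER-resident factor released under stress, had 2351, 2426 and 3828 against 3438, 3578 and 4637, a difference of -0.46 ± 0.19. Knockout pool 3 of Manf lay within the wild-type range. Dnajb11, the J protein ERdj3, was at -0.25 ± 0.15 log2.

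Creld2, an ER disulfide-handling protein secreted under stress, had the lowest difference and the widest spread, and it is given in full because of these values. Its normalized intensities were 696, 578 and 1819 without Nrf2 against 952, 1761 and 2194 in wild type. Knockout pool 3 was 2.85-fold above the mean of the other knockout pools, and wild-type pool 3 was 1.69-fold above the mean of the other wild-type pools, both means being of log2 values. The SD between pools was 0.88 log2 among knockout pools against 0.62 among wild-type pools, and the adjusted p was 0.733.

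**Figure D5:**
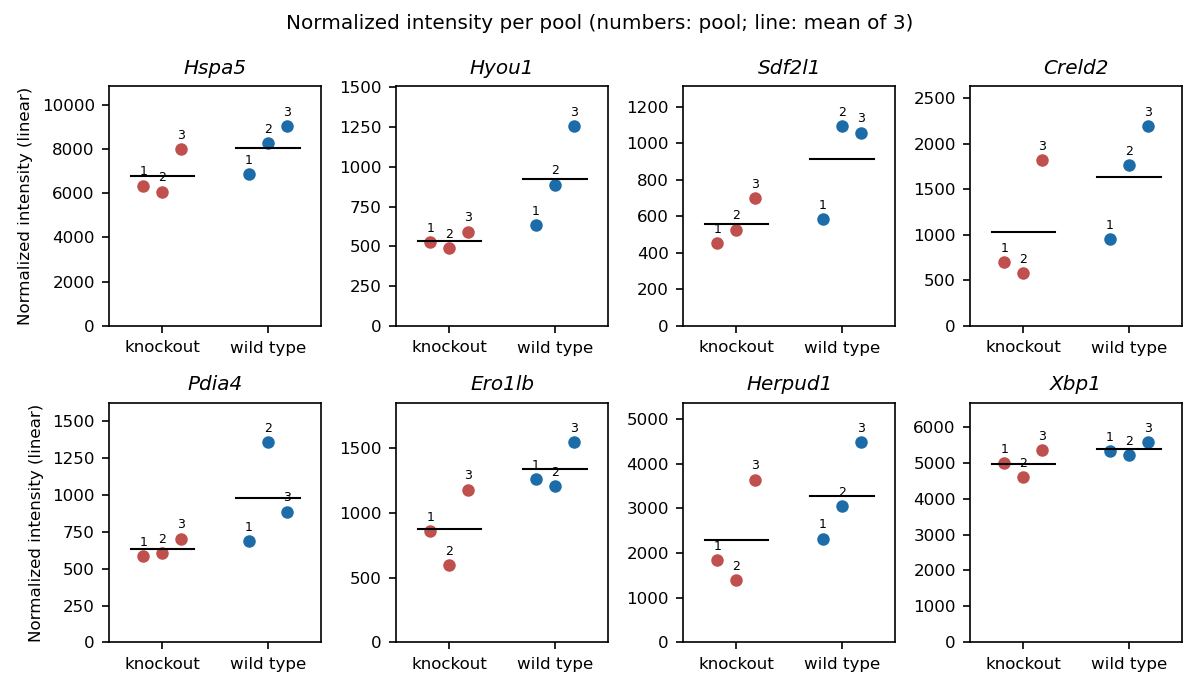
Normalized intensity on a linear axis from 0 for 8 of the genes in the 3 knockout pools (red) and 3 wild-type pools (blue), with the pool number beside each point and a line at the mean of 3. Hyou1 and Ero1lb show no overlap between genotypes, while knockout pool 3 of Creld2 and Herpud1 lies among the wild-type pools.

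Disulfide isomerases and oxidases, which form and shuffle the disulfide bonds of secreted proteins, were lower at 7 of 7 genes with a median of -0.09 log2, and 4 of the 5 isomerases lay within 0.10 of 0. P4hb, the founding isomerase PDI, was at -0.09 ± 0.06 log2 with pools of 6277, 6009 and 6139 against 6503, 6446 and 6664. These groups did not overlap although the difference was 1.06-fold, with an adjusted p of 0.769. Pdia3, which acts on glycoproteins with calnexin, Pdia5 and Pdia6 lay between -0.09 and -0.06. Pdia4 (ERp72) had the largest difference among the isomerases, with 585, 606 and 702 without Nrf2 against 686, 1354 and 885 in wild type. Wild-type pool 2 was the highest, knockout pool 3 was just above wild-type pool 1, and the difference was -0.57 ± 0.22 log2 (adjusted p = 0.607). The oxidases reoxidise the isomerases. Ero1lb (now Ero1b), which has an ERSE 201 bases upstream, had 860, 595 and 1178 against 1258, 1207 and 1544. Its groups did not overlap, and it was 1.57-fold lower (adjusted p = 0.567), with a second probe set at -0.62 ± 0.21. Ero1l (now Ero1a), the form also induced by hypoxia, had 216, 202 and 245 against 257, 269 and 251. Its groups did not overlap either, with a difference of -0.23 ± 0.11, but 1 of its 3 probe sets was at 0.02.

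The lectin chaperones and the glycosylation enzymes handle N-glycosylated proteins, and 4 of 4 were lower with a median of -0.13 log2. Uggt1, the glucosyltransferase that returns misfolded glycoproteins to calnexin, had 298, 294 and 302 without Nrf2 against 356, 338 and 365 in wild type. Its knockout pools were close together and all below the wild-type pools, a 1.18-fold difference (-0.24 ± 0.09 log2, adjusted p = 0.612). Stt3a, a catalytic subunit of the oligosaccharyltransferase, was at -0.16 ± 0.10, and Canx and Calr, the chaperones calnexin and calreticulin, were at -0.10 ± 0.07 and -0.06 ± 0.06. Calr and Canx also have an ERSE, and their differences were under 0.11 in size. The prolyl isomerases Ppib and Fkbp2, which speed proline-limited folding, were at -0.11 ± 0.08 and -0.11 ± 0.10, and knockout pool 3 was the lowest pool for both.

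The sensors and Xbp1 had differences from -0.34 to 0.03 log2, and the groups overlapped for all 4. Ern1 (IRE1) had normalized intensities of 799, 541 and 924 without Nrf2 against 790, 842 and 1221 in wild type. Knockout pool 2 was low and wild-type pool 3 high, and the difference was -0.34 ± 0.22 log2 (adjusted p = 0.763). Eif2ak3 (PERK) had 184, 169 and 189 against 204, 217 and 186, a difference of -0.16 ± 0.12. Atf6 had 183, 211 and 225 against 161, 248 and 205. Its wild-type pools enclosed the knockout pools, and the difference was 0.03 ± 0.17. Xbp1, the transcription factor downstream of IRE1, had 4976, 4593 and 5344 against 5324, 5212 and 5559, a difference of -0.11 ± 0.08 (adjusted p = 0.772). Knockout pools 1 and 2 were below every wild-type pool, and 2 of the 4 Xbp1 probe sets were lower. Total Xbp1 signal does not separate the spliced from the unspliced mRNA, so splicing was not measured here.

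ER-associated degradation genes, which recognise, extract and ubiquitinate misfolded proteins, were lower at 9 of 9 with a median of -0.17 log2. Sel1l, the adaptor of the ubiquitin ligase Hrd1, had 645, 724 and 887 without Nrf2 against 899, 917 and 1167 in wild type. The groups did not overlap, and the difference was 1.32-fold (-0.40 ± 0.14 log2, adjusted p = 0.595), with all 5 probe sets lower. Syvn1, which encodes Hrd1 and has an ERSE, had 967, 774 and 1607 against 1151, 1766 and 1849, a difference of -0.55 ± 0.27. Its dimmer probe set was at -0.28 ± 0.22, with knockout pool 3 (662) level with wild-type pool 3 (663). At the brighter probe set, knockout pool 3 of Syvn1 was within the wild-type range and 1.85-fold above the mean of the other knockout pools. Derl2, a channel-associated derlin, had 1953, 1928 and 2001 against 2236, 2068 and 2329. Its groups did not overlap at a difference of -0.17 ± 0.08, and its dimmer probe set was at -0.40 ± 0.12 (adjusted p = 0.485).

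Herpud1, the stress-induced scaffold of the degradation complex, and Derl3, an inducible derlin, are given because of their pool values. Herpud1 had 1833, 1385 and 3637 without Nrf2 against 2321, 3048 and 4472 in wild type. Knockout pool 3 was 2.28-fold above the mean of the other knockout pools and above wild-type pools 1 and 2, and the difference was -0.59 ± 0.34 log2 (adjusted p = 0.744). Derl3, the dimmest of the 35 genes, had 62.2, 60.4 and 121 against 81.1, 157 and 130, a difference of -0.59 ± 0.30. Knockout pools 1 and 2 were below every wild-type pool for both genes. Derl1 was at -0.17 ± 0.09 with groups that did not overlap. Selk and Vimp, selenoproteins of the degradation complex (now Selenok and Selenos), were at -0.16 ± 0.11 and -0.09 ± 0.12, and Edem1, which trims mannose from glycoproteins, was at -0.06 ± 0.10.

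Other genes of the pathway were taken from a list of 55 further ER folding and stress genes, of which 51 were tested. Of these 37 were lower and 14 higher, with a median of -0.08 log2, where 48.6% of all tested genes were lower. By limma 0 passed, where 0.144% of all genes did. Before adjustment 5 had p under 0.05, all lower, against 4.15% of all genes on the lower side. These were Dnajc10, Edem2, Edem3, Hspa13 and Rpn1. Dnajc10 (ERdj5), a J protein with disulfide reductase activity, had normalized intensities of 231, 262 and 270 without Nrf2 against 384, 366 and 438 in wild type. All its knockout pools were below the wild-type pools and close together, and it was 1.54-fold lower (-0.63 ± 0.12 log2, adjusted p = 0.145). Edem2, another mannosidase-like degradation factor, had 325, 340 and 307 against 385, 409 and 417, without overlap (-0.31 ± 0.10). The PERK and ATF4 branch had 8 of 8 tested genes lower with a median of -0.20 and 0 with an unadjusted p under 0.05. Within it, Atf4 was at -0.01 ± 0.19, Ddit3 (CHOP) at -0.04 ± 0.27 and Chac1 at -0.34 ± 0.30. Ddit3 had 75.6, 75.1 and 152 against 80.1, 102 and 115, with knockout pool 3 the highest. Of 15 further degradation genes 7 were lower and 8 higher, with a median of 0.01, and of 5 genes of the ATF6 family and its proteases 4 were lower with a median of -0.01.

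Genes of other states and cell types were set beside these values. Of the 9 cytosolic heat shock genes 8 were lower and 1 higher, with a median of -0.32 log2 and 0 with an unadjusted p under 0.05. Hspd1 and Hspe1, chaperones of the mitochondrial matrix, were at 0.12 ± 0.10 and 0.26 ± 0.13. Of 10 circadian clock genes 6 were lower (median -0.05), and of 11 fasting and feeding genes 4 were lower (median 0.03). Among the latter, Ppargc1a, a coactivator induced by fasting, was at 0.79 ± 0.24 with overlapping groups (limma adjusted p = 0.514). Fasn, G6pc and Fgf21 lay the other way, at -0.24 ± 0.17, -0.28 ± 0.21 and -0.40 ± 0.39. Hepatocyte markers had 3 of 10 lower and 7 higher (median 0.07), Kupffer cell and macrophage markers 3 of 10 lower and 7 higher (0.16), and endothelial markers 3 of 8 lower and 5 higher (0.06). Both tested cholangiocyte markers of 5 with a probe set were lower (-0.22). Stellate cell and fibroblast markers were higher at 9 of 9, with a median of 0.22 and 0 passing. Their summed normalized intensity was 3723 to 3855 over knockout pools against 3112 to 3481 over wild-type pools, without overlap. The largest part of this sum came from Dcn, whose groups overlapped. Of the 9 genes 1, Des, had groups that did not overlap, where 7.38% of all genes were higher without overlap. Des, the filament protein desmin, had 25.4, 31.8 and 26.4 without Nrf2 against 14.8, 16.3 and 5.22 in wild type, a difference of 1.00 ± 0.31 log2 (limma adjusted p = 0.514). The part of these cells in the ER values was not tested. Plasma cells and pancreatic acinar cells are rich in ER chaperones. Of 8 plasma and B cell markers 7 had a probe set and 6 were tested, 2 lower and 4 higher, and their summed normalized intensity was 2124 to 3737 over knockout pools against 2080 to 2457 over wild-type pools, most of it from Sdc1, which hepatocytes also express. Jchain was between 33.4 and 55.3 in all pools. Of 10 acinar markers 7 had a probe set and 3 were tested, all higher, with sums of 794 to 1285 over knockout pools against 552 to 931 over wild-type pools, most of it from Cela1. The acinar enzyme gene Cpa1 lay between 0.613 and 1.18, no marker was at 0, and the part of these cell types in the ER values was not tested. Of the 11 Nrf2 target genes 11 were lower and 6 passed, with a median of -0.96. Of all tested genes 48.6% were lower and 0.144% passed. The targets Nqo1, Srxn1, Txnrd1, Gclc and Gclm did not pass, with limma adjusted p from 0.493 (Nqo1) to 0.826 (Gclm).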

How the data were processed

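Liver RNA of 6 pools was hybridised, 1 colour, to Affymetrix mouse arrays. The deposited values are linear probe set intensities from the authors. Per the submitters' processing notes the software was GCOS 1.4. Its algorithm and scaling: not given in the sources used here. Detection calls were not used here, and the number of arrays limits the precision.

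A pseudocount of 5.26 (the 25th percentile over the table) was added to each intensity before log2 and quantile normalization. A difference is on this scale, which understates changes of dim probe sets. A normalized intensity is the normalized value taken back to the linear scale less the pseudocount. Without the 64 controls, 22519 probe sets with a mean at or above the median were tested with limma 3.58.1 in R 4.3.3 (lmFit, eBayes with an intensity trend, Benjamini-Hochberg over all tested probe sets, threshold 0.05). Each gene was read from the brightest tested probe set that names it alone, from the platform annotation with symbols updated through RefSeq (GRCm38.p6). The procedure was tested on simulated data.

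Values in every pool were given for Hspa5, Hsp90b1, Xbp1, Atf6, Ern1, Eif2ak3 and the 12 other members with the smallest p. In other lists the rule allowed up to 4 genes with the smallest p and the brightest marker, and not all of these are printed. P4hb, Creld2, Herpud1 and Derl3, and of other lists Rpn1, Hspa1b, Alb, Ass1, Atf4, Ddit3, Chac1, Jchain and Cpa1, were added after their values were seen. So were the Nrf2 targets Nqo1, Srxn1, Txnrd1, Gclc and Gclm, and also Angptl4, Pdk4, Igfbp1 and Arntl. The members, gene lists and tests were chosen with earlier results of these data known. The heat shock list held 2 mitochondrial chaperones, set apart after the values were seen (all 11 had a median of -0.15). Lists are described by counts and medians, with no test. Whether pools shared animals is not stated, so p-values measure the spread between pools. The alternatives were median centring, scaling to a common trimmed mean, pseudocounts of 1.31 and 21.0, array weights, testing every probe set or only those above the 70th percentile, eBayes without its trend, a replicate block, averaging the probe sets of each gene and each pool left out. Leaving out both pools numbered 3 was added after seeing the data.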

Additional observations from a re-analysis of the deposited data

How the results depend on the processing

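Over 17 alternatives and 35 genes, 589 of 595 differences kept their direction and none passed the threshold in any alternative by limma. The smallest adjusted p was 0.0911, for Manf. The direction held for 33 genes in every alternative, and Atf6 and Vimp were the exceptions. Atf6 was at -0.020 under median centring and at -0.024 without both pools numbered 3, and it ranged from -0.13 to 0.17 with each pool left out. Vimp was at 0.00030 without both pools numbered 3 and ranged from -0.20 to 0.0053 with each pool left out. The cause was not tested.

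The count of genes with an unadjusted p under 0.05 on the lower side, 8 in the fit reported, was 4 without the intensity trend and 13 without both pools numbered 3, and it ranged from 2 to 17 with each pool left out. With the replicate number as a block it was 16, where 5% of all genes were lower at that p against 4.15% without the block, with 0 members passing. The labels give both genotypes the same pool numbers without saying that they mark a shared litter or day. Same-numbered pools had correlations of 0.13, 0.05 and 0.25 between their deviations from the group means. Pools of unlike number had correlations from -0.19 to 0.10. Knockout pools 1 and 3 correlated best with the wild-type pool of their own number, and knockout pool 2 with wild-type pool 1 (0.10). These values do not settle whether the pools are paired. Since the labels name no pairing, the pools were not treated as paired. The block gave 32 called probe sets over the array, as did the fit without it. Testing every probe set gave 20, keeping those above the 70th percentile 19, and the count was 18 without the intensity trend and 18 to 29 with each pool left out. The median of the 35 genes ranged from -0.25 to -0.16 with each pool left out. The median of the other ER folding and stress genes was -0.13 under median centring, which moved the median of all genes from 0.01 to -0.03, and -0.10 to -0.04 with each pool left out. With 3 pools per genotype, differences of the size measured here lie near the spread between pools.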
